A study of Mus musculus with 17 samples.

Results

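The small leucine-rich proteoglycans described here are 8 genes, Dcn, Bgn, Aspn, Lum, Fmod, Prelp, Omd and Ogn, taken by gene symbol from the 34140 genes of an expression table of mouse skin. The rule uses no measured value, though the members were chosen with earlier results of these data known. Each of the 8 symbols was found in the table. Skin of C57/BL6j mice was profiled by RNA sequencing with Smart-Seq2, a method that amplifies full-length cDNA from little RNA, in a series on the molecules behind the repair of irradiated wounds. The control arm holds 2 libraries at day 0, 2 at day 3, 2 at day 6 and 3 at day 9 after injury. The arm given ionizing radiation holds 3 libraries at day 3, 2 at day 6 and 3 at day 9. All 17 libraries share the strain and the tissue, and the irradiated arm has no day-0 library. The dose, the kind of wound, the age of the mice and whether each library is a separate animal are not stated in the labels. The p-values therefore measure only the spread between these libraries, which may be technical.

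Small leucine-rich proteoglycans are secreted proteins of the connective tissue matrix, built from leucine-rich repeats that curve into an arc and bind collagen. Many carry chondroitin, dermatan or keratan sulfate chains, and they set the diameter and spacing of collagen fibrils. Several also bind growth factors of the TGF-β family and hold them in the matrix, and in skin they are made mainly by fibroblasts. Decorin (Dcn), biglycan (Bgn) and asporin (Aspn) form the first class, of which asporin lacks the attached sugar chain of the other two. Lumican (Lum), fibromodulin (Fmod), PRELP (Prelp) and osteomodulin (Omd) belong to the second class, and osteoglycin (Ogn) to the third.

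The genes lie in clusters. In mm10 coordinates, Aspn (ENSMUSG00000021388, chr13:49544443-49567565), Omd (ENSMUSG00000048368, chr13:49582462-49592822) and Ogn (ENSMUSG00000021390, chr13:49608046-49624501) stand in a row on the same strand. They lie within the span of Cenpp, a centromere protein gene on the other strand, whose exons share 7 bases with those of Aspn and 0 with those of Omd and Ogn. Cenpp had a mean of 1.49 FPKM (fragments scaled to the length of the gene and to the assigned fragments of the library) over the 17 libraries. Dcn (ENSMUSG00000019929, chr10:97479609-97518143) and Lum (ENSMUSG00000036446, chr10:97565128-97572703) lie on chromosome 10. Prelp (ENSMUSG00000041577, chr1:133910304-133921414, minus strand) and Fmod (ENSMUSG00000041559, chr1:134037254-134048277, plus strand) lie on chromosome 1, and Bgn (ENSMUSG00000031375, chrX:73483602-73495933) on X. An antisense transcript, Gm15851, shares 350 of the 3615 exon bases of Prelp and had a mean of 0.0303 FPKM.

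The 250 bases before the RefSeq start are printed for the 3 neighbours on chromosome 13 and for Prelp. At day 9 Prelp was the only member higher in irradiated than in control skin. All 7 other members had lower values there, not these neighbours alone, and none of the 7 passed. They are read in the direction of the gene, 5′ to 3′, from RefSeq on GRCm38.p6. Capitals mark the letters of a TATA box (TATAAA) or a CCAAT box (CCAAT), searched on both strands at any distance within the 250 bases. Whether these letters act as promoter elements was not tested.
Aspn, chr13:49544193-49544442, plus strand: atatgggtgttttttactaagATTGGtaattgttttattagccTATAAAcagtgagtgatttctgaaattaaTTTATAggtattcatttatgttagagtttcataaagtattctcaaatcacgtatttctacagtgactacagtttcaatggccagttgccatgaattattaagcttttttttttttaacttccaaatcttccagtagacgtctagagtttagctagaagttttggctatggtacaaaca
Omd, chr13:49582212-49582461, plus strand: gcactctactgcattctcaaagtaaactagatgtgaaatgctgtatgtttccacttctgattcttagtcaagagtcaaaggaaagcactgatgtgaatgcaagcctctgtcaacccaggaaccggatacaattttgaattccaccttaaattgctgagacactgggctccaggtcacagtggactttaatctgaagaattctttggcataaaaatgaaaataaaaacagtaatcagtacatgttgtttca
Ogn, chr13:49607765-49608014, plus strand: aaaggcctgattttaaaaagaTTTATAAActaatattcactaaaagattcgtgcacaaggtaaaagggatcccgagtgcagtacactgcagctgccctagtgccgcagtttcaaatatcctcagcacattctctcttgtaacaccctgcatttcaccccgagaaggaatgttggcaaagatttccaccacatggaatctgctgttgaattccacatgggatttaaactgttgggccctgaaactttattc
Prelp, chr1:133921402-133921651, minus strand: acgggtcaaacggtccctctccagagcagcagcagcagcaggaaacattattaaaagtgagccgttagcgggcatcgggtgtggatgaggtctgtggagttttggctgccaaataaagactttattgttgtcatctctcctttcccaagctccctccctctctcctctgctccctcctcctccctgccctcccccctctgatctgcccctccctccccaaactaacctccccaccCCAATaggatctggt
Aspn held TATAAA on each strand, 202 to 207 and 173 to 178 bases before its start, and CCAAT on the minus strand of the gene, 225 to 229 bases before it. Ogn held TATAAA on both strands, in matches that overlap each other 222 to 229 bases before its start. Prelp held CCAAT 11 to 15 bases before its start. Omd held none of these letters. Of the 8 members, 6 were matched in the promoter table by symbol (all but Dcn and Lum). Among all 32851 promoters of the same length, 12.4% held TATAAA and 33.8% held CCAAT. The GC box GGGCGG, in 32.7% of all promoters, was found in Bgn. The AP-1 letters TGANTCA (6.75% of all promoters), the E box CACGTG (6.02%), the SMAD palindrome GTCTAGAC (0.167%) and the interferon response element (2.98%) were found in 0 of the 6. The upstream bases of Aspn were 30% G or C and those of Bgn 64.4%, against a median of 52.4% over all promoters.

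The libraries held 25440773 to 30797409 assigned fragments. All 8 genes passed the filter on low values, with 44 fragments (Omd) to 82935 fragments (Dcn) in a library. Keratinocyte markers defining skin were above 0 in all libraries, with a summed level of 3317 to 26860 FPKM. The 2 day-0 libraries stood apart: mitochondrially encoded genes took 21.7% and 31.8% of their summed FPKM against 8.33% to 12.6% elsewhere, and 10 skeletal muscle markers summed to 19680 to 24070 FPKM against 1383 to 4828. The libraries of irradiated day 6 differed from each other for every member, and control day 0 replicate 1 was below replicate 2 for all 8, though for Fmod only by 4.46 against 4.49 FPKM. Results that rest on these libraries are given without them below.

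Of the first class, Dcn, which coats collagen fibrils and binds TGF-β, varied least, 4.67-fold between its lowest and highest library. Its FPKM was 117 and 282 in control skin at day 0, 209 and 249 at day 3, 166 and 261 at day 6, and 262, 281 and 319 at day 9. In irradiated skin it was 287, 386 and 395 at day 3, 501 and 107 at day 6, and 315, 273 and 260.0 at day 9. The highest and the lowest of the 17 values were thus the 2 libraries of irradiated day 6. Bgn, which binds collagen and can act on Toll-like receptors once released from the matrix, had 45.8 and 106 FPKM at control day 0, 125 and 78.3 at day 3, 136 and 245 at day 6, and 334, 358 and 335 at day 9. Its irradiated libraries had 152, 174 and 133 FPKM at day 3, 277 and 157 at day 6, and 373, 236 and 254 at day 9. Both arms were highest at day 9, where they overlapped.

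Aspn, which binds collagen and TGF-β, varied most, 29.9-fold between its lowest and highest library. Control libraries had 37.1 and 69.7 FPKM at day 0, 36.1 and 26.2 at day 3, 66.9 and 178 at day 6, and 311, 410.2 and 286 at day 9. Irradiated libraries had 49.4, 73.6 and 37.1 FPKM at day 3, 13.7 and 50.1 at day 6, and 119, 119 and 76.6 at day 9. By group mean the order was control day 9 (336 ± 65.9 FPKM, SD, n = 3), control day 6 (122 ± 78.5, n = 2), irradiated day 9 (105 ± 24.5, n = 3), control day 0 (53.4 ± 23.1, n = 2), irradiated day 3 (53.4 ± 18.6, n = 3), irradiated day 6 (31.9 ± 25.7, n = 2) and control day 3 (31.2 ± 6.98, n = 2). Only control day 9 from control day 6, and irradiated day 9 from control day 0, were neighbours in this order whose libraries did not overlap.

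In the second class, Lum, which regulates fibril spacing and is best known from the cornea, had 53.0 and 138 FPKM at control day 0, 136 and 129 at day 3, 152 and 294 at day 6, and 501, 594 and 451 at day 9. Irradiated libraries had 179, 211 and 248 FPKM at day 3, 211 and 82.1 at day 6, and 319, 288 and 231 at day 9. At day 9 every irradiated library was below every control library. Fmod, which modulates collagen fibril assembly and cross-linking, had 4.46 and 4.49 FPKM at control day 0, 1.99 and 1.91 at day 3, 4.56 and 9.51 at day 6, and 14.8, 15.9 and 9.19 at day 9. With irradiation it had 2.29, 3.8 and 1.70 FPKM at day 3, 2.55 and 5.21 at day 6, and 6.15, 8.07 and 8.65 at day 9. Its day-3 libraries were low in both arms, and at day 9 the irradiated libraries lay below the control libraries.

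Prelp, which binds collagen and heparan sulfate and links basement membranes to the matrix beneath, had its 3 highest group means in the 3 irradiated groups. Control libraries had 13.4 and 33.0 FPKM at day 0, 24.0 and 20.3 at day 3, 10.6 and 21.6 at day 6, and 12.2, 12 and 10.2 at day 9. Irradiated libraries had 42.8, 47.7 and 39.5 FPKM at day 3, 39.6 and 22.0 at day 6, and 32.3, 28.5 and 35.6 at day 9. The order of group means was irradiated day 3 (43.3 ± 4.10 FPKM, SD, n = 3), irradiated day 9 (32.2 ± 3.56, n = 3), irradiated day 6 (30.8 ± 12.4, n = 2), control day 0 (23.2 ± 13.9, n = 2), control day 3 (22.1 ± 2.61, n = 2), control day 6 (16.1 ± 7.82, n = 2) and control day 9 (11.5 ± 1.14, n = 3). In that order only irradiated day 3 and irradiated day 9 were neighbours without overlap.

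Omd, a keratan sulfate proteoglycan first known from bone, had the lowest mean of the members in every group but irradiated day 3. There Fmod was lower (2.60 against 2.82 FPKM). It had 1.70 and 6.51 FPKM at control day 0, 1.30 and 1.56 at day 3, 2.08 and 6.23 at day 6, and 13.1, 16.3 and 6.32 at day 9. With irradiation it had 2.25, 4.19 and 2 FPKM at day 3, 0.690 and 1.96 at day 6, and 2.77, 6.01 and 2.78 at day 9. Ogn, the third-class member, which binds collagen and was first purified from bone, had 31.4 and 111 FPKM at control day 0, 32.6 and 55.7 at day 3, 51.7 and 109.5 at day 6, and 138, 182 and 104 at day 9. Irradiated libraries had 82.4, 104 and 60.0 FPKM at day 3, 19.6 and 45.3 at day 6, and 95.3, 97.5 and 95.9 at day 9. For both genes irradiated day 6 replicate 1 was the lowest of the 17 libraries and control day 9 replicate 2 the highest.

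**Figure D1:**
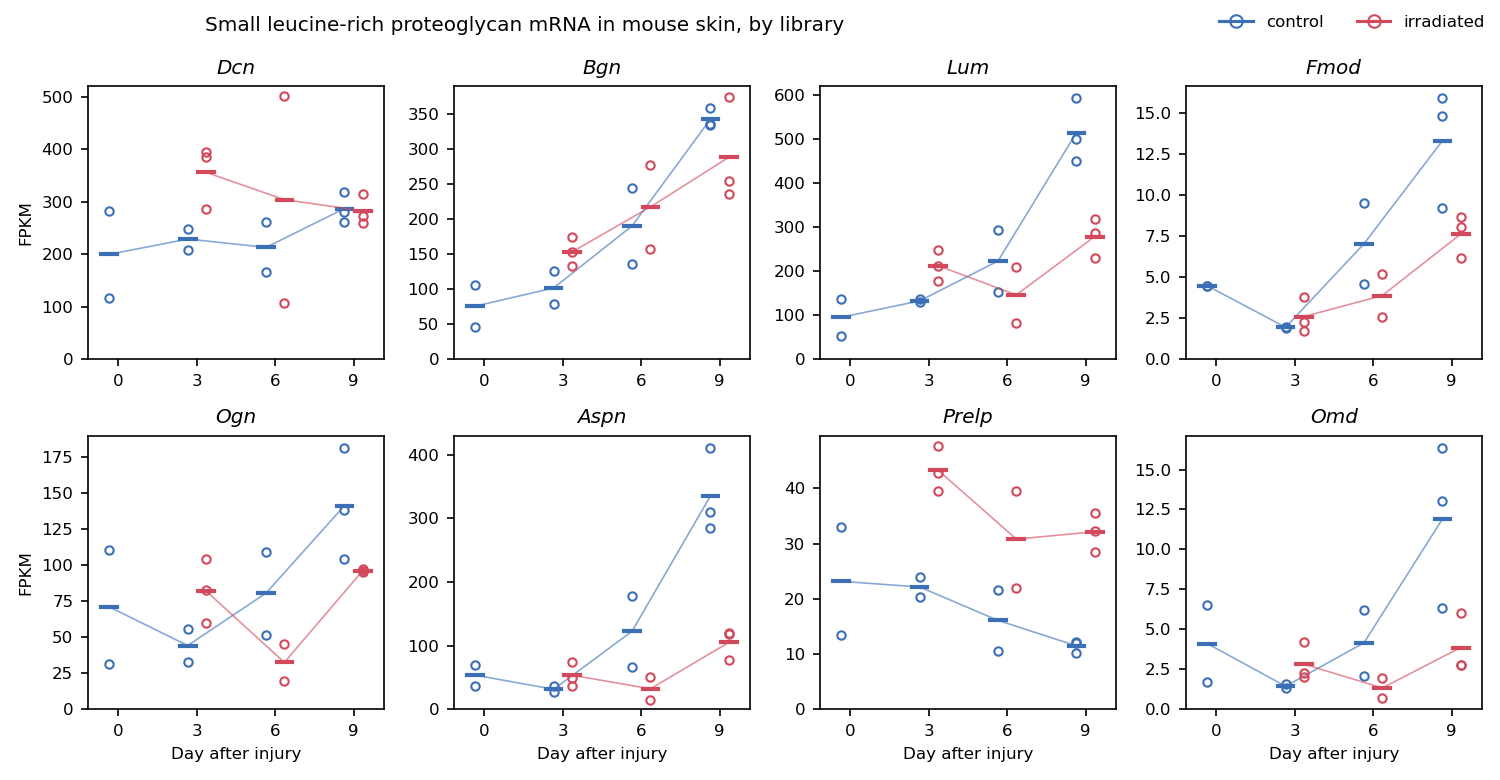
FPKM of each member (vertical axis, linear, starting at 0) against day after injury, with a circle for each library, a bar for the group mean and a line joining the means of an arm. Aspn reaches 286 to 410.2 FPKM in control skin at day 9 against 76.6 to 119 in irradiated skin, and Prelp is at 10.2 to 12.2 against 28.5 to 35.6.

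In control skin, 6 of the 8 genes rose between day 3 and day 9: Aspn, Omd, Fmod, Lum, Bgn and Ogn. Aspn rose 10.8-fold in mean FPKM, from 31.2 ± 6.98 (SD, n = 2) to 336 ± 65.9 (n = 3), a log2 fold change of FPKM + 1 of 3.39 (SE 0.523, limma adjusted p 0.00207). Omd rose 8.32-fold in FPKM (log2 2.32, adjusted p 0.011) and Fmod 6.83-fold (2.25, 0.00156). Lum rose 3.88-fold (1.94, 0.00993), Bgn 3.37-fold (1.78, 0.00792) and Ogn 3.20-fold (1.67, 0.0408). Dcn, at 0.33 (adjusted p 0.691), and Prelp, at -0.89 (adjusted p 0.0923), did not pass. Over all 15271 genes tested, 8.02% were called higher and 18.2% were called in either direction. The median log2 fold change was 1.86 over the members and -0.07 over all genes tested. All 8 had non-overlapping groups, 7 of them higher at day 9 (22.9% of all genes) and Prelp lower (34.9% of all genes). Of 19 fibroblast markers tested, 9 passed as higher and 0 as lower, and their sum was 944 to 1004 FPKM at day 3 and 1453 to 1727 at day 9. The list was not uniform: Pi16, Dpp4, Gsn and Ly6a were lower in every day-9 than in every day-3 library, without passing. Pi16, for example, had 27.7 and 37.0 FPKM at day 3 and 10.5, 16.2 and 8.48 at day 9. S100a4 was the marker of that list listed at 0, in 1 of these libraries, and 6 of 9 adipocyte markers were lower. Of 14 keratinocyte markers 2 were lower (Krt5 and Dsp), with a sum of 21860 to 22110 FPKM at day 3 and 10020 to 16410 at day 9, and 3 of 10 skeletal muscle markers were lower. Of 4 tendon, cartilage and bone markers tested, Tnmd was higher and Scx lower. Of 10 endothelial and mural markers tested, Acta2 and Rgs5 were higher and Des lower. The part of these markers in the result was not tested, and in bulk tissue fewer cells of a type and less RNA per cell cannot be told apart. Without control day 3 replicate 3 the members passing were 2 (Fmod and Aspn), and without replicate 1 they were 3 (Bgn, Fmod and Aspn). The Ogn call also ended without control day 9 replicate 1 or 2 and with no filter on low values (adjusted p 0.0807).

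Against control day 0, 5 members had risen by day 9. Aspn was 6.28-fold higher in mean FPKM (log2 2.68, limma adjusted p 0.00125), Lum 5.40-fold (2.57, 0.000419), Bgn 4.53-fold (2.28, 0.000362), Fmod 2.97-fold (1.35, 0.00469) and Omd 2.90-fold (1.43, 0.0375). Of all genes 30.4% were called higher, so this count stands against a wide background. Ogn (1.21, adjusted p 0.0674), Prelp (-0.83, 0.0654) and Dcn (0.65, 0.309) did not pass. The median of all genes was 0.15 with FPKM as deposited, 0.04 with median-of-ratios scaling and -0.08 when scaled to the total without mitochondrial genes. Relative to that deposited median the 5 members stood 1.21 to 2.53 higher, and their direction was the same under each scaling. These scalings do not remove a change in cell types. All 10 skeletal muscle markers were lower at day 9, with sums of 1420 to 2599 FPKM against 19680 to 24070 at day 0. Of 9 adipocyte markers 6 were lower, and of 19 fibroblast markers 9 were higher and 3 lower (Pi16, Gsn and Clec3b). The part of these markers in the result was not tested. The Omd call ended without control day 0 replicate 1 (adjusted p 0.386) and in 5 other alternatives, while the other 4 passed in every alternative tried. Without that library Prelp passed (-1.45, 0.00779), as it did with median-of-ratios (0.0266), quantile (0.0307) and no-mitochondrial-gene total (0.0134) scaling, and without control day 0 replicate 2 Ogn did (2.10, 0.00633).

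At the earlier days fewer members differed from day 0. At day 6, 2 of 8 had risen, Bgn by 1.38 (adjusted p 0.0198) and Lum by 1.30 (adjusted p 0.0467) in limma, where 35.3% of all genes were called. Both calls ended without control day 0 replicate 1 (0.195 and 0.377) or control day 6 replicate 2 (0.148 and 0.278). At day 3, 0 of 8 passed in limma, against 38.1% of all genes, 1 had an unadjusted p under 0.05 (47.3% of all genes), and limma-voom on recovered fragments also called 0. That gene was Fmod, at -0.89 (adjusted p 0.0659), with both day-3 libraries below both day-0 libraries.

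Averaged over days 3, 6 and 9 with equal weight, irradiated skin had more Prelp than control skin, and no other member passed. Prelp was 2.27-fold higher in mean FPKM (8 libraries against 7), a log2 fold change of 1.09 (SE 0.20, limma adjusted p 0.00643), and it passed in all 27 alternatives tried. This was 1 of 8 members called, with 6.93% of all genes called in either direction and 4.36% called higher. Aspn was next, at -0.99 (SE 0.302, adjusted p 0.072), with a mean FPKM 2.79-fold higher in control skin. Omd stood at -0.62 and Fmod at -0.39 (adjusted p 0.243 each), Ogn at -0.31, Lum at -0.30, Dcn at 0.25 and Bgn at 0.18. Aspn passed without irradiated day 6 replicate 3 (adjusted p 0.0117) or control day 6 replicate 1 (0.0359) and with array quality weights (0.0433), and without irradiated day 6 replicate 1 the value of Dcn was -0.11.

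At day 9, Prelp was 2.80-fold higher in irradiated than in control skin, 32.2 ± 3.56 FPKM (SD, n = 3) against 11.5 ± 1.14 (n = 3). Its log2 fold change was 1.41 (SE 0.31, limma adjusted p 0.0258), the only call among the 8, where 5.38% of all genes were called. The other 7 were negative. Aspn stood at -1.68 (SE 0.468, adjusted p 0.0574), with 336 ± 65.9 FPKM in control and 105 ± 24.5 in irradiated skin. Omd stood at -1.39 (adjusted p 0.0991), Lum at -0.89 (0.188), Fmod at -0.71 (0.17), Ogn at -0.51 (0.538), Bgn at -0.28 (0.657) and Dcn at -0.02 (0.983). In 5 members, Aspn, Omd, Lum, Fmod and Ogn, every irradiated library lay below every control library, as did 17.2% of all genes, and Prelp was higher in this way, as were 16.8%. Fibroblast markers summed to 1459 to 1712 FPKM in irradiated and 1453 to 1727 in control skin, with 1 of 19 higher (Ly6a) and 2 lower (Lsp1 and Tcf4). Ly6a alone held 686, 371 and 562 FPKM of the irradiated sums and 164, 161 and 232 of the control sums. The median log2 fold change of the 19 fibroblast markers was -0.42, against 0.02 over all genes. Of 9 adipocyte markers, 3 were higher (Adipoq, Cfd and Cidec) and 0 lower, and their sum was 405 to 1138 FPKM against 167 to 243, none at 0, while the fibroblast marker S100a4 was listed at 0 in 2 irradiated libraries. Of 14 keratinocyte markers 0 passed, but their sums did not overlap, at 19050 to 20450 FPKM in irradiated and 10020 to 16410 in control libraries, none at 0. Endothelial and mural markers summed to 443 to 524 FPKM in irradiated and 581 to 662 in control libraries, with 1 of 10 tested lower (Rgs5). Immune markers summed to 5665 to 7047 FPKM in irradiated libraries. In control libraries they summed to 2387, 1642 and 10770 FPKM in replicates 1, 2 and 3, and 0 of 11 tested passed. The part of these markers in the result was not tested. The Prelp call ended with no filter on low values (adjusted p 0.0516) and without any of the 6 day-9 libraries in turn (0.0516 to 0.11), with fold changes of 1.33 to 1.49. Aspn passed in 7 of the 18 alternatives, among them scaling to the total without mitochondrial genes (adjusted p 0.0479).

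**Figure D2:**
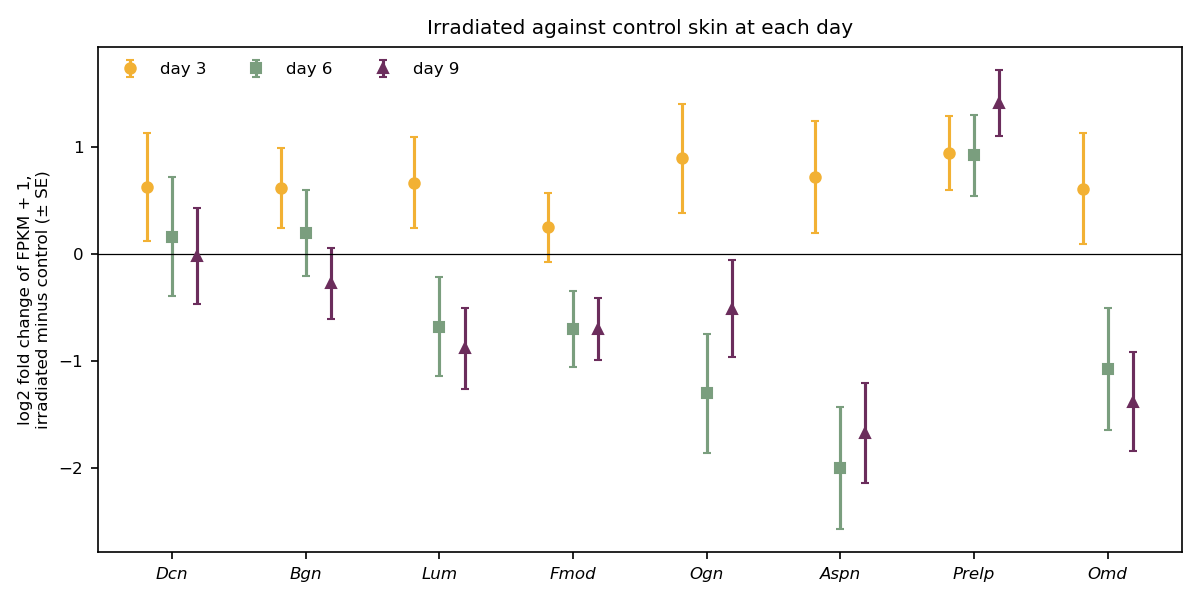
Log2 fold change of FPKM + 1, irradiated minus control, for each member at days 3, 6 and 9 (points; bars are the standard error of the limma fit). Prelp lies above 0 at all 3 days, at 0.94, 0.92 and 1.41, while Aspn lies at 0.72, -2.01 and -1.68.

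At day 3 all 8 members had positive differences, from 0.25 (Fmod) to 0.94 (Prelp), with a median of 0.65 against -0.04 over all genes. By limma 0 of 8 passed, where 1.85% of all genes did, and limma-voom also called 0. At an unadjusted p under 0.05, which 11.4% of all genes had, there was 1, Prelp (p 0.0187, adjusted p 0.286). Groups did not overlap in 7 members, Fmod being the exception, and 15.9% of all genes were higher in this way. Fibroblast markers summed to 1503 to 2152 FPKM in irradiated and 944 to 1004 in control libraries, with 1 of 19 higher (Ly6a). S100a4 was listed at 0 in 1 library of each arm. Ly6a alone held 764, 830 and 556 FPKM in irradiated and 240 and 247 in control libraries. Keratinocyte sums did not overlap either, at 14710 to 20710 FPKM in irradiated and 21860 to 22110 in control libraries, with 0 of 14 passing. Tendon, cartilage and bone markers summed to 20.6 to 22.9 against 23.2 to 32.1 FPKM, with 0 of 4 tested passing. The part of these markers in the result was not tested.

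At day 6, Prelp was positive (0.92, adjusted p 0.282) and Aspn (-2.01, 0.161), Ogn (-1.31, 0.297) and Omd (-1.08, 0.387) were negative, all 4 with non-overlapping groups of 2 libraries. Lower groups of this kind made up 16% of all genes and higher ones 19.8%. By limma and by limma-voom 0 of 8 passed, against 0.275% of all genes, and 3 had an unadjusted p under 0.05, as did 15.4% of all genes. Keratinocyte markers summed to 7819 FPKM in irradiated replicate 1 and 25770 in replicate 3, against 26860 and 18750 in control replicates 1 and 2. Immune markers summed to 10840 and 5523 FPKM in irradiated and 20500 and 3248 in control libraries, and fibroblast markers to 1256 and 1238 against 833 and 1368. Adipocyte markers summed to 810 and 1724 FPKM in irradiated and 392 and 609 in control libraries, without overlap. Of the 7 marker lists 0 genes passed at this day, and 1 fibroblast marker, S100a4, was listed at 0 in replicate 1 of each arm. Their part in the result was not tested. Without irradiated day 6 replicate 3, Aspn passed (-2.90, adjusted p 0.0155). Dcn moved from 0.16 to -0.95 without irradiated day 6 replicate 1.

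The day-9 effect of irradiation minus its day-3 effect was negative in 7 members. It was -2.40 for Aspn (SE 0.702, p 0.00495, limma adjusted p 0.212), -1.99 for Omd, -1.55 for Lum, -1.41 for Ogn, -0.95 for Fmod, -0.89 for Bgn and -0.65 for Dcn. Prelp stood at 0.47 (SE 0.465, adjusted p 0.682). None passed over all genes, where 0% did, and limma-voom called 0. An unadjusted p under 0.05 was found in 4 members and in 14.5% of all genes. With array quality weights 6 members and 18.3% of all genes passed, and with a fit of only the 4 groups compared 2 members and 1.43% of all genes did. A test of any difference in the effect among the 3 days called 0 of 8 members, against 0.0131% of all genes. There too 4 had an unadjusted p under 0.05 (15.3% of all genes), Aspn having the smallest (p 0.00599, adjusted p 0.235), and limma-voom called 0. Without irradiated day 6 replicate 3 Aspn passed this test (adjusted p 0.0431).

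Within irradiated skin, 0 of 8 members passed between day 3 and day 9 in limma, against 0.963% of all genes, and limma-voom called 0. At an unadjusted p under 0.05, which 16.2% of all genes had, there were 2, Fmod at 1.29 (adjusted p 0.0574) and Bgn at 0.89 (0.209). Aspn stood at 0.99 (0.325), where control skin had 3.39. Lum stood at 0.39, Omd at 0.33, Ogn at 0.26, Dcn at -0.32 and Prelp at -0.42. The difference between the arms in this change is the day-9 minus day-3 contrast above, which did not pass for any member.

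**Figure D3:**
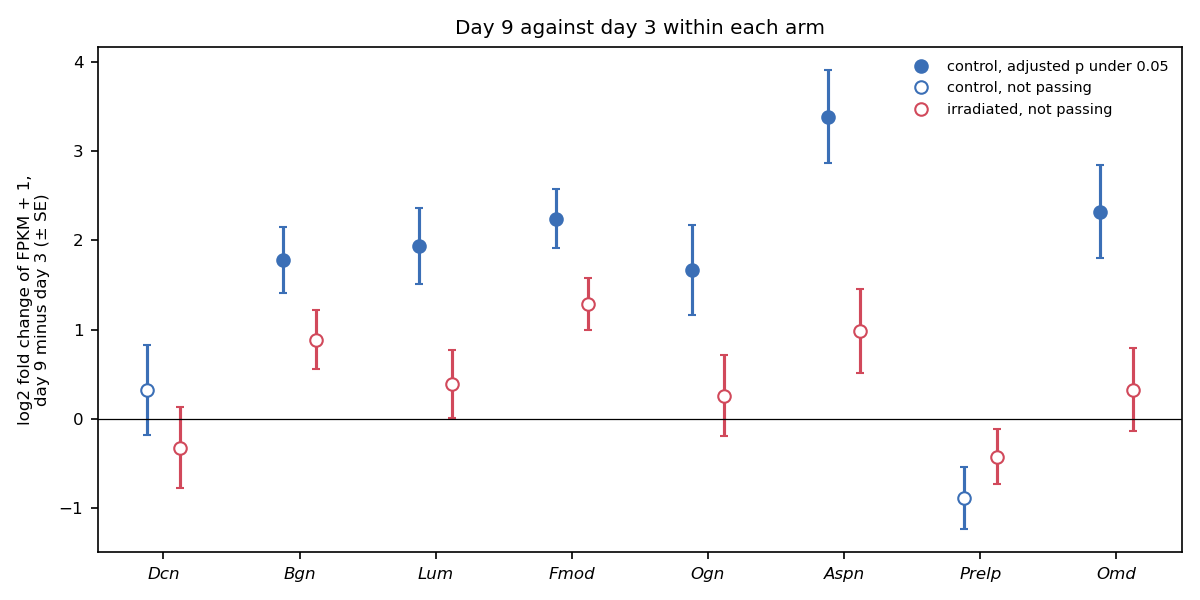
Log2 fold change of FPKM + 1 from day 3 to day 9 within each arm (points; bars are the standard error, filled points have an adjusted p under 0.05). The 6 filled control points run from 1.67 (Ogn) to 3.39 (Aspn), and the irradiated points of the same genes from 0.26 to 1.29.

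The make-up of the family changed with day. Dcn held 38.6% and 37.7% of the summed FPKM of the 8 genes at control day 0, and 16.5%, 15% and 21% at control day 9. In irradiated skin at day 9 it held 25.0%, 25.9% and 27.0%. Lum took the largest share at control day 9, with 31.6%, 31.8% and 29.7%. The share of Aspn there was 19.6%, 21.9% and 18.8%, against 9.42%, 11.3% and 7.94% in irradiated skin. The summed FPKM of the family was 1520 to 1870 in control and 965 to 1263 in irradiated libraries at day 9. Bgn and Dcn, the members of the first class that carry sugar chains, were compared as a ratio within each library. Bgn stood at 0.314 and 0.599 of Dcn at control day 3 and at 1.05 to 1.28 of Dcn at control day 9. Irradiated libraries had 0.337 to 0.531 at day 3 and 0.865 to 1.18 at day 9. Averaged over days 3, 6 and 9, the log2 ratio differed between the arms by -0.08 (two-sided exact permutation p 0.775, 1200 arrangements within days, smallest possible p 0.000833), and without irradiated day 6 replicate 1 by 0.16.

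**Figure D4:**
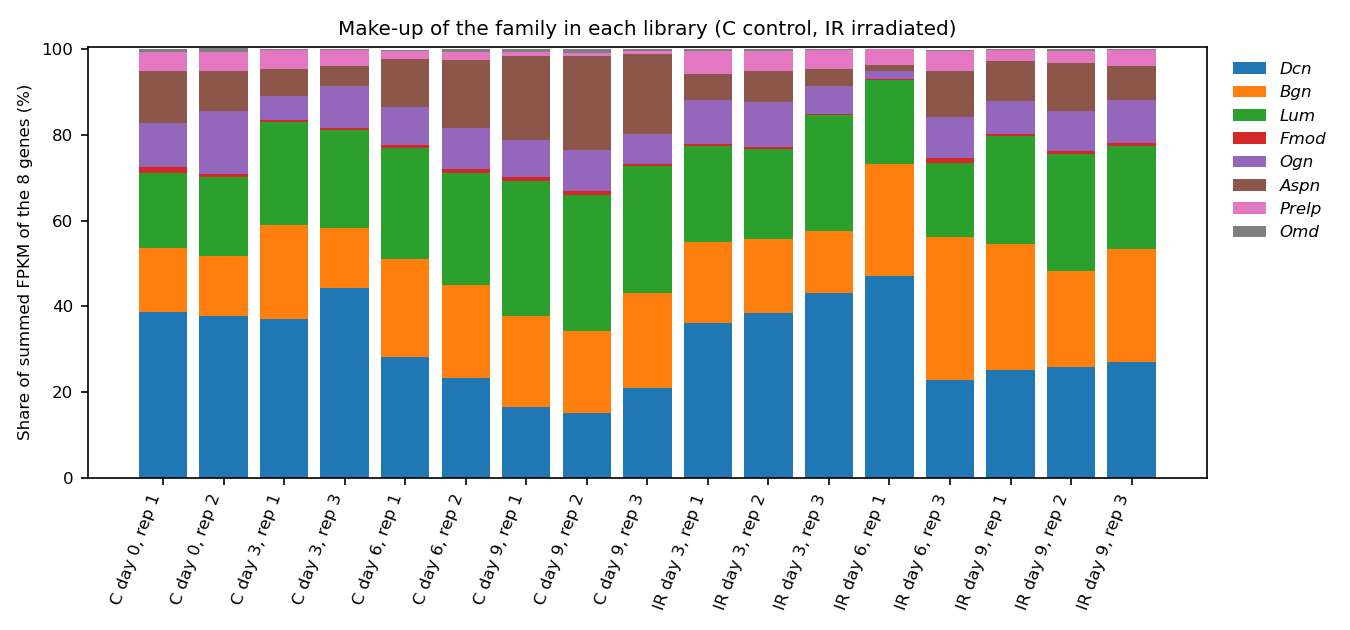
Share of each member in the summed FPKM of the 8 genes (vertical axis, percent), with a stacked bar for each of the 17 libraries. Dcn takes 15% to 21% in control day 9 libraries and 36.9% and 44.3% in control day 3 libraries.

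Aspn and Prelp were the members with the lowest and the highest difference at day 9. The ratio of Aspn to Prelp within a library was 25.4, 34.1 and 28.1 in control skin at day 9 and 3.68, 4.18 and 2.15 in irradiated skin. At day 3 it was 1.5 and 1.29 in control and 1.16, 1.54 and 0.937 in irradiated libraries, which overlap. These ratios were chosen after the values were seen and carry no test.

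**Figure D5:**
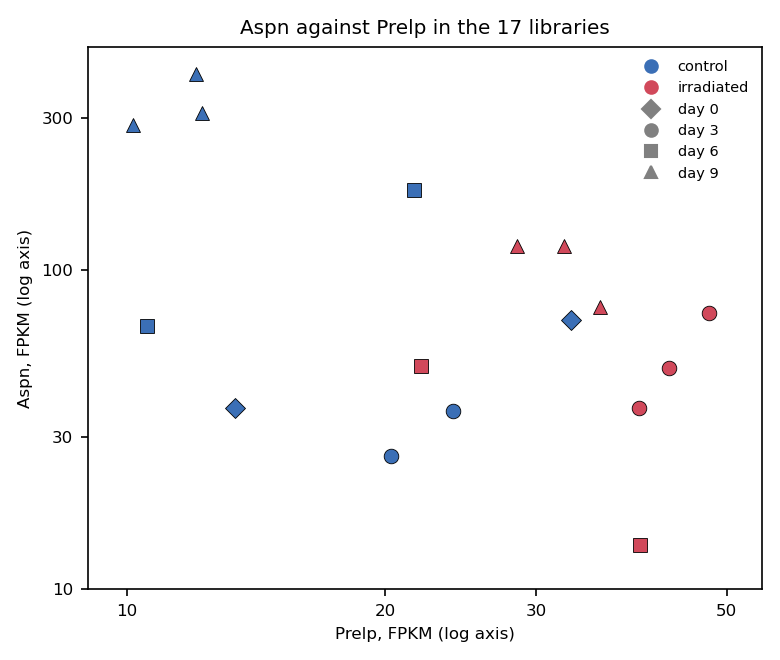
FPKM of Aspn (vertical, log axis) against FPKM of Prelp (horizontal, log axis), with a point for each of the 17 libraries, coloured by arm and shaped by day. The 3 control day 9 libraries lie at the upper left, with 286 to 410.2 FPKM of Aspn and 10.2 to 12.2 of Prelp, apart from the other 14.

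Among 12 other small leucine-rich repeat genes, 7 passed the filter on low values. Of these, 4 rose in control skin between day 3 and day 9, where 8.02% of all genes did (Lrrc17, Podnl1, Kera and Ecm2) and none fell, though the Lrrc17 call ended without either control day 3 library or control day 9 replicate 1 or 2 (adjusted p 0.0503 to 0.196). Kera, which encodes the corneal proteoglycan keratocan, lies beside Lum and had 6.13, 7.68 and 2.96 FPKM in control and 0.432, 1.02 and 0.637 in irradiated libraries at day 9. It was lower in irradiated skin (-1.90, SE 0.269, limma adjusted p 0.00469). Podnl1, a relative of podocan, was lower too, with 6.61, 7.91 and 9.66 FPKM against 3.10, 1.29 and 0.581 (-1.87, SE 0.257, adjusted p 0.00424). Both calls at day 9 held in all 18 alternatives. Lrrc32, which holds latent TGF-β at the cell surface, was higher (0.74, adjusted p 0.022), a call that ended in 4 alternatives, each leaving out a library (control day 9 replicate 1 or 2, irradiated day 9 replicate 1 or 3), with adjusted p of 0.0563 to 0.102.

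Genes of the collagen fibrils that these proteoglycans bind followed the days in control skin. Of 20 fibril collagens and fibril-associated genes tested, 14 rose between day 3 and day 9 and 0 fell, with a median of 2.13 against -0.07 over all genes, of which 8.02% rose. Col12a1, whose product sits on fibril surfaces, rose by 3.74, Col5a1, which nucleates fibrils, by 3.09, and Col1a1, the main fibril chain, by 2.88. At day 9, 0 of the 20 passed between the arms, and their median was -1.02 against 0.02 over all genes. Col1a1 had 2001 ± 762 FPKM (SD, n = 3) in irradiated and 3419 ± 457 (n = 3) in control skin (-0.83, limma adjusted p 0.349). Col1a2 (-0.97, 0.177) and Col3a1 (-0.83, 0.31) did not pass either. Of 17 collagen cross-linking and folding genes, 9 rose from day 3 to day 9 in control skin (8.02% of all genes), among them Loxl2 by 2.55, and 0 passed between the arms at day 9. Without control day 3 replicate 3, the calls for Col1a1, Col5a1 and Loxl2 ended (adjusted p 0.1, 0.112 and 0.13).

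Of 20 enzymes of chondroitin and dermatan sulfate synthesis, 6 rose in control skin from day 3 to day 9, against 8.02% of all genes, among them the chondroitin synthases Chsy1 (1.57) and Chsy3 (1.54). At day 9, where 5.38% of all genes were called in either direction, 2 were lower in irradiated skin, Dsel (-0.73, limma adjusted p 0.0213), which epimerizes chondroitin to dermatan sulfate, and Csgalnact2 (-0.43, adjusted p 0.0388), which starts chondroitin chains. Of 7 genes for keratan sulfate chains, 1 was lower, Fut8 (-0.48, adjusted p 0.0384), a fucosyltransferase. The Csgalnact2 call ended without any of the 6 day-9 libraries (0.0623 to 0.145), that of Fut8 without any but control replicate 3 (0.0528 to 0.15), and that of Dsel without control replicate 1 or 2 or irradiated replicate 2 or 3 (0.0512 to 0.101). Those of Chsy1 and Chsy3 ended without control day 3 replicate 3 (0.112 and 0.0815).

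Of 21 growth factors and receptors that small leucine-rich proteoglycans bind, Tgfb2 was the only call at day 9, lower by irradiation at -0.90 (limma adjusted p 0.0111), with 3.69 ± 0.787 FPKM (SD, n = 3) against 7.72 ± 1.09 (n = 3). It did not pass without irradiated day 9 replicate 3 (adjusted p 0.058). Tgfb1, the ligand named in the title of the series, did not pass between the arms at day 9 (-0.09, adjusted p 0.869) or on average (0.15, 0.652), and it rose by 1.28 from day 0 to day 9 in control skin (adjusted p 0.00351, and 0.0646 without control day 0 replicate 1). Of 15 proteases listed as able to cut these proteoglycans, 2 were higher in irradiated skin at day 9, against 5.38% of all genes called. They were the mast cell chymase Mcpt4 (2.42, adjusted p 0.00642), with 67.4 ± 24.6 FPKM against 11.1 ± 0.164, and granzyme B, Gzmb (2.05, adjusted p 0.0394). Among 16 other proteoglycan and hyaluronan genes, Prg4, which encodes lubricin, and the syndecan Sdc3 were higher on average over the days (2.30, adjusted p 0.0156, and 1.25, adjusted p 0.00576). In that averaged comparison 4.36% of all genes were called higher, and both genes passed in all 27 alternatives. The Gzmb call ended without any of 5 of the 6 day-9 libraries (all but control replicate 3), at adjusted p of 0.059 to 0.165. It also ended with a pseudocount of 0.1 (adjusted p 0.0664), no filter on low values (0.0764) and only the groups compared (0.112).

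The genes whose course over the 17 libraries was most like that of each member were found by the root mean square difference of centred log2(FPKM + 1), among 7723 protein-coding genes with a mean of at least 5 FPKM. For Dcn they were Scara3 (0.291) and Pdgfra (0.301), a growth factor receptor of fibroblasts. For Bgn they were Lamb1 (0.208) and Tmem119 (0.234), and for Lum the fibril collagen Col3a1 (0.267) and C1qtnf6 (0.270). Fmod was nearest to Tgfb3 (0.370) and Pdgfrl (0.383), Aspn to the collagen receptor Itga11 (0.435) and Lrrc17 (0.456), and Ogn to Sulf2 (0.421) and Itgbl1 (0.424). Itgbl1 was also nearest to Omd (0.256), ahead of Htra1 (0.361). Prelp was nearest to Gas6 (0.241), a ligand of TAM receptors, and Xdh (0.302). Among the members themselves, the nearest to Aspn, Fmod and Ogn was Omd (0.573, 0.508 and 0.426), and Bgn and Lum were nearest to each other (0.434). The nearest member to Prelp was Dcn, at 0.642. By the same measure a flat course lay 0.699 from Prelp and 0.554 from Dcn, so this distance shows little likeness.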

How the data were processed

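RNA from mouse skin was sequenced as paired-end Smart-Seq2 libraries, per the labels' protocols. Reads were aligned to mm10 with HISAT2 2.2.1, per the submitters' processing notes. No source used here names the counting tool. The authors deposited FPKM for 34140 genes in 17 libraries, with no counts beside them. With gene lengths from GENCODE release M21, all values of 31476 genes were whole fragments within 0.01, which gave the library totals. The 15271 genes that reached an FPKM of 1 in 2 or more libraries were analysed as log2(FPKM + 1) with limma-trend (limma 3.58.1 under R 4.3.3), fitting 1 mean for each of 7 groups. P-values were adjusted over all tested genes by Benjamini and Hochberg, and an adjusted p under 0.05 passed. The fit was tested on simulated data. The members and lists were chosen with earlier results of these data known. Other genes were named by a rule: from each list up to 3 passing genes with the largest change, always Col1a1, Col1a2, Col3a1 and Tgfb1, and the 2 genes nearest to each member. Ecm2, Cenpp, Gm15851 and the cell markers were named after their values were seen. Alternatives were other pseudocounts (0.1 and 5), filters, scalings, weights, a replicate block, fewer groups and each library left out. Chosen after seeing the data was limma-voom on the recovered fragments.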

Additional observations from a re-analysis of the deposited data

How the results depend on the processing

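Of the 42 sign changes under alternatives, 0 concerned a value that passed in either fit. The number of members passing (averaged over days, 1 as reported) was 2 with array quality weights and 1 to 2 with a library left out. At day 3 (0 as reported) it was 1 with only the groups compared and 1 with array quality weights. At day 6 (0 as reported) it was 0 to 1 with a library left out. At day 9 (1 as reported) it was 2 with a pseudocount of 5, 0 with no filter, 2 with median-of-ratios scaling, 2 with quantile normalization, 2 when scaled to the total without mitochondrial genes (nuclear scaling), 3 with only the groups compared, 5 with array quality weights and 0 without any of the 6 day-9 libraries in turn. For the F test (0 as reported) it was 3 with array quality weights and 0 to 1 with a library left out, and for day 9 minus day 3 (0 as reported) it was 2 with only the groups compared and 6 with array quality weights. For control day 3 against day 0 (0 as reported) it was 1 with a pseudocount of 0.1, median-of-ratios, quantile or nuclear scaling, or only the groups compared. For control day 6 against day 0 (2 as reported) it was 1 with no filter or any of the 3 scalings, 0 with only the groups compared or array quality weights, and 0 to 2 with a library left out. For control day 9 against day 3 (6 as reported) it was 2 to 6 with a library left out, and for irradiated day 9 against day 3 (0 as reported) it was 1 with median-of-ratios scaling, 1 with only the groups compared and 3 with array quality weights. The cause was not tested.

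Residuals of same-numbered libraries correlated with r from -0.122 to 0.298. With groups of 2 or 3 libraries this cannot decide whether the numbers pair the samples, and the labels do not say. The main fit did not pair them. With a replicate block the day-6 effect rested on replicate 1 alone, the only number present in both arms at that day. Irradiated day 6 replicate 1 had the highest Dcn and the lowest Aspn of the 17 libraries. Only effect sizes are therefore given where day 6 enters. At day 6 they were 1.59 for Dcn, 1.81 for Prelp and -2.205 for Aspn. Averaged over days they were -1.14 for Aspn and 0.71 for Dcn. The count over all genes at day 6 under the block rests on the same pair. At day 9 the members passing with the block were 4 (Prelp, Aspn, Lum and Omd). In these comparisons of the arms the block was the replicate number within a day. For comparisons of days it was the replicate number across all days and arms. With that second block, 6 members passed for control day 9 against day 0, with Ogn added (limma adjusted p 0.0265). Under the block within days, averaged values changed sign for Lum (0.0809), Col1a1 (0.0145) and Col3a1 (0.0092), and at day 6 for Lum (0.46).

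Other sign changes were Dcn at day 9 (0.0123 with array quality weights), Prelp at control day 3 against day 0 (-0.13 with median-of-ratios, -0.11 with quantile and -0.20 with nuclear scaling), Omd at control day 6 against day 0 (-0.0245, -0.0138 and -0.14 with the same scalings), Dcn there (-0.10 with nuclear scaling) and Tgfb1 in irradiated day 9 against day 3 (0.0109 with quantile normalization). With a library left out, averaged values ran from -0.11 to 0.62 for Dcn, -0.45 to 0.0084 for Col1a1 and -0.0005 to 0.31 for Tgfb1. Day-6 values ran from -0.95 to 1.26 for Dcn and -0.23 to 0.62 for Bgn, and day-9 values from -0.10 to 0.0544 for Dcn and -0.17 to 0.0198 for Tgfb1. For control day 3 against day 0 they ran from -0.31 to 0.95 for Dcn, -0.0919 to 1.10 for Bgn, -0.0549 to 1.31 for Lum, -0.56 to 0.68 for Prelp and -1.35 to 0.43 for Ogn. For control day 6 against day 0 they ran from -0.44 to 0.82 for Dcn, -0.55 to 1.24 for Ogn, -0.67 to 0.81 for Omd and -1.07 to 0.17 for Prelp. Tgfb1 ran from -0.0274 to 0.30 for control day 9 against day 3 and from -0.13 to 0.0167 for irradiated day 9 against day 3. The log2 ratio of Bgn to Dcn (-0.08) ran from -0.31 to 0.16.

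Counts over all genes were wide. On average over days 1058 genes passed, with 570 to 1702 when a library was left out. At day 3 there were 282 (28 to 234 with a library left out, 1242 with array quality weights), at day 6 there were 42 (7 to 988, and 838 with the replicate block), and at day 9 there were 822 (94 to 912, and 5610 with array quality weights). For the F test, 2 became 1607 and for day 9 minus day 3, 0 became 2794 with array quality weights. With only the groups compared, 5824 became 1981 for control day 3 and 5394 became 360 for control day 6 against day 0. For control day 9 against day 3 there were 2780 (300 to 2365 with a library left out, 6336 with array quality weights), and for irradiated day 9 against day 3 there were 147 (13 to 98, and 3448). The share of calls that were higher moved from 62.9% to 49.9% with quantile normalization on average over days, from 44.0% to 58.3% with median-of-ratios scaling for control day 9 against day 3, and from 62.8% to 37.1% with nuclear scaling for control day 9 against day 0. Depth limits Omd most, with 44 fragments in its lowest library.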
